A study of Mus musculus with 11 samples.

Results

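The genes described here are 31 genes of astrocytes, 17 that mark the identity of the cell and 14 that astrocytes raise when they become reactive. They were taken by symbol from a table of 17118 genes measured in the mouse hippocampus after chemotherapy. Rows of 30 of the 31 genes were matched, and Timp1 was not analysed here. The mice were C57/BL6 females of 12 weeks, injected into the peritoneum once a week, 8 times in all. In AC-T mice the first 4 injections held doxorubicin at 2 mg/kg and cyclophosphamide at 50 mg/kg, and the last 4 held paclitaxel at 5 mg/kg. Control mice were given 0.9% saline. All samples carry a label of 1 month, and the labels name no transgene or mutation. RNA of hippocampal punches was sequenced from 5 AC-T mice (501, 502, 503, 600 and 602) and 6 saline mice (201, 202, 203, 300, 301 and 302). Mouse numbers begin with 5 or 6 in the AC-T group and with 2 or 3 in the saline group, called series here, and what that digit stands for is not given in the labels.

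Astrocytes clear glutamate from synapses and turn it into glutamine. They buffer potassium, water and bicarbonate, and join into networks through gap junctions. After injury or inflammation they can become reactive: they build more intermediate filament and secrete acute-phase proteins, in part through receptors that signal by gp130 and STAT3. Astrocytes also differ by region, so that those of the thalamus and brainstem express genes that astrocytes of the cortex and hippocampus express weakly.

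Library totals were 28.3 to 31.7 M counts after AC-T and 23.4 to 32.1 M counts after saline. Each of the 17 identity genes was above 0 in all 11 libraries, so the astrocyte label had its defining genes in every library. The hippocampal markers Prox1, Dsp, Spink8, Neurod6 and Zbtb20, chosen after other results were seen, were also above 0 in all 11 libraries. Neurod6, a transcription factor of forebrain neurons, was at 175 to 229 CPM after AC-T and 80.091 to 150.001 CPM after saline, with no overlap, and Spink8, a marker of hippocampal pyramidal cells, was at 14.4 to 21.8 CPM after AC-T and 1.70 to 16.96 CPM after saline. For Prox1, Dsp and Zbtb20 the ranges overlapped. Markers of the thalamus, which lies below the hippocampus, differed between the groups. Of 14 thalamic genes 13 passed as lower after AC-T in the edgeR test described below, beside 3.58% of all genes tested. The fold change was negative in all 14 of these genes. Their mean log2(CPM + 0.5), called the thalamus score here, was 5.15 ± 0.258 after AC-T and 6.20 ± 0.309 after saline, with no overlap between the groups. The exact permutation p of the thalamus score was 0.00216, 2-sided, the smallest this design can give (0.014 adjusted over 13 list scores). The thalamic list was chosen with earlier results of these data known. Its count and p therefore describe these libraries and are not an independent test. CPM is the usual unit of counts relative to library size, here corrected for library composition. In bulk tissue, fewer cells of a type and less RNA per cell cannot be told apart.

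To ask how AC-T changed astrocyte genes, edgeR's quasi-likelihood test was fitted on 15353 genes in the 5 AC-T and 6 saline libraries. A gene passed at a Benjamini-Hochberg adjusted p under 0.05. A positive log2 fold change means a higher level after AC-T, and its standard error is given as SE. Of the 17 identity genes, 3 fell after AC-T (Aqp4, S100b and Slc4a4) and 0 rose. With mouse-number series as a random effect, at an estimated correlation of 0.215, 1 of the 17 passed (Slc4a4, limma-voom adjusted p = 0.0472; Aqp4 had 0.0895 and S100b 0.109). In that fit 124 of all 15353 genes tested were lower and 169 were higher. In edgeR 17.6% of the identity genes were lower, beside 3.58% of all genes tested. Fold changes were negative for 14 of the 17, with a median of −0.22 against −0.0029 over all genes tested. At an unadjusted p under 0.05, 9 of the 17 were lower, beside 10.9% of all genes. Of the 14 reactivity genes, 11 could be tested and 0 passed, beside 8.47% of all genes (4.89% higher). Those 11 include Cd44, Cd109 and Sphk1, listed at 0 in 5, 3 and 4 libraries, with wide SEs of 1.53, 1.07 and 1.41. The other 8 were above 0 in all libraries. Only Serpina3n had an unadjusted p under 0.05 among those 11 in edgeR, and it passed in DESeq2 but not in limma-voom. The division of all passing genes depended on scaling, with 751 higher and 550 lower in the main analysis, and 593 higher and 663 lower with upper-quartile factors. The identity genes that passed were the same 3 under both.

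**Figure D1:**
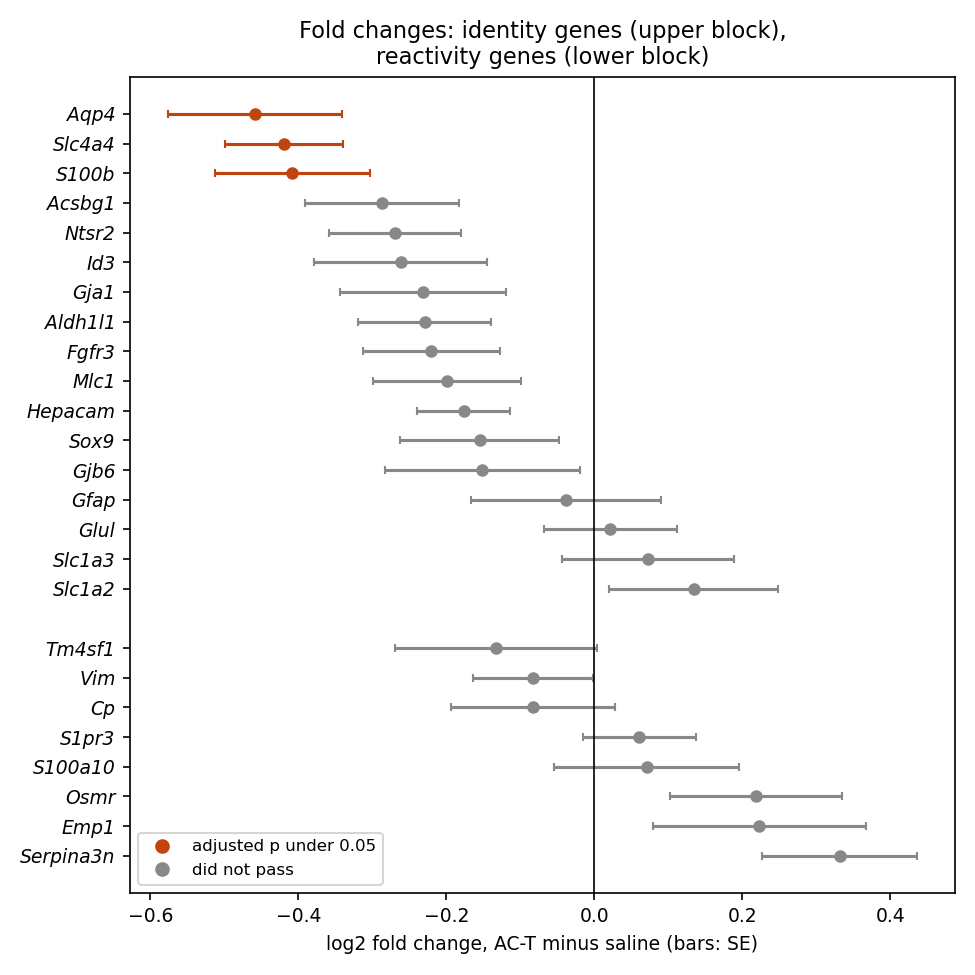
Log2 fold change of AC-T minus saline (x axis, bars are SE) for the 25 astrocyte genes that were above 0 in all 11 libraries. Aqp4, Slc4a4 and S100b, in colour, passed at an adjusted p under 0.05. The identity genes run from −0.46 (Aqp4) to 0.13 (Slc1a2), and the reactivity genes from −0.13 (Tm4sf1) to 0.33 (Serpina3n).

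In what follows, values of single libraries are normalised CPM in the order of AC-T mice 501, 502, 503, 600 and 602, then saline mice 201, 202, 203, 300, 301 and 302. They are not divided by transcript length, so levels of different genes are not compared. The first group holds the genes that move ions and water across the astrocyte membrane.

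Slc4a4 encodes the sodium bicarbonate cotransporter NBCe1, which sets astrocyte and extracellular pH. It stood at 209.9, 174, 209, 165 and 179 CPM after AC-T, against 222, 243, 270.0, 282, 244 and 244 CPM after saline. The highest AC-T library lay below the lowest saline library. Groups did not overlap, counting either direction, for 2 of the 17 identity genes and 7.54% of all genes tested. Its level was 188 ± 20.7 CPM after AC-T and 251 ± 21.4 CPM after saline (SD, n = 5 and 6), 0.748 of saline (log2 −0.42 ± 0.08 SE; edgeR adjusted p = 0.0121). This call was kept when any 1 library was left out (highest adjusted p = 0.0362). It ended without the saline mice of series 3 (0.0508), without the AC-T mice of series 6 (0.0681) and with the thalamus score as covariate (0.759, log2 −0.34). That score did not overlap between the groups, and with it as covariate 1 of all 15353 genes tested passed.

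Aqp4 encodes aquaporin-4, the water channel of the astrocyte end-feet that wrap blood vessels. It was listed at 221, 167, 220.0, 159 and 152 CPM after AC-T, against 231, 221, 257, 303, 243 and 263 CPM after saline. The 2 highest AC-T libraries, 501 and 503, lay at the level of the lowest saline library, and the other 3 lay below every saline library. Aqp4 fell to 0.727 of saline (log2 −0.46 ± 0.12 SE; edgeR adjusted p = 0.0356). Its call ended on removing any 1 of 7 libraries (highest of these adjusted p = 0.0945, with AC-T 502 removed). It also ended without the saline mice of series 2 (0.0735) or 3 (0.163), without the AC-T mice of series 6 (0.155) and with the thalamus score as covariate (0.770, log2 −0.47).

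Mlc1 and Hepacam encode membrane proteins that form a complex at astrocyte junctions and end-feet. Mlc1 stood at 220.2 ± 35.2 CPM after AC-T and 253 ± 22.6 CPM after saline (log2 −0.20 ± 0.10 SE; edgeR adjusted p = 0.245). Hepacam stood at 108 ± 9.77 and 122 ± 7.06 CPM in the same order (log2 −0.18 ± 0.06 SE; edgeR adjusted p = 0.106). Gja1 and Gjb6 encode connexin 43 and connexin 30, the gap junction proteins of astrocytes. Gja1 had a log2 fold change of −0.23 ± 0.11 (SE; edgeR adjusted p = 0.228) and Gjb6 of −0.15 ± 0.13 (SE; adjusted p = 0.529). The groups overlapped for all 4 of these genes, and none of the 4 passed in edgeR, while Hepacam passed as lower in DESeq2 (adjusted p = 0.0273).

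S100b encodes a calcium-binding protein of astrocytes that some oligodendrocytes also make. It stood at 227, 158, 233, 176 and 168 CPM after AC-T, against 238, 286, 241, 246, 261 and 260.0 CPM after saline, with no overlap. The gap was narrow for AC-T 501 and 503 and wide for the other 3. Its level was 192 ± 35.0 CPM after AC-T and 255 ± 17.8 CPM after saline, 0.754 of saline (log2 −0.41 ± 0.10 SE; edgeR adjusted p = 0.0356). Of 8 oligodendrocyte markers, 0 passed in edgeR, with a median log2 fold change of −0.07, and 0 had an unadjusted p under 0.05. The S100b call ended on removing any 1 of 8 libraries (highest adjusted p = 0.0858, with AC-T 602 removed), without the saline mice of series 2 (0.117) or 3 (0.128), without the AC-T mice of series 6 (0.165), and with the thalamus score as covariate (0.826, log2 −0.29).

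Gfap encodes the intermediate filament protein of astrocytes, the most used marker of reactive astrocytes. Gfap was listed at 531, 385, 519, 424 and 387 CPM after AC-T, against 403, 347, 455, 542, 509.7 and 512 CPM after saline. Each group spanned nearly the same range, and AC-T 501 and 503 lay beside the 3 saline mice of series 3. Its log2 fold change was −0.04 ± 0.13 (SE; edgeR adjusted p = 0.895). The sign changed without the saline mice of series 3 (0.15) and without AC-T 502 (0.012).

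Start-site sequences are shown for Gfap, whose level did not pass, and for S100b and Slc4a4, which fell, so that the binding motif of STAT factors can be looked for beside the expression values. Sequences are from RefSeq on build GRCm38.p6, older than the GRCm39 build of the counts, and run 5′ to 3′ on the gene's strand from 250 bases before the annotated start to 30 after it. Capitals mark the STAT motif TTCNNNGAA, which reads the same on both strands. The Gfap window lies at chr11:102897171-102897450 on the minus strand, and S100b at chr10:76253586-76253865 on the plus strand. Slc4a4 has 2 annotated starts, at chr5:88887010-88887289 and chr5:89027716-89027995 on the plus strand, and gene-level counts do not separate their transcripts.
Gfap: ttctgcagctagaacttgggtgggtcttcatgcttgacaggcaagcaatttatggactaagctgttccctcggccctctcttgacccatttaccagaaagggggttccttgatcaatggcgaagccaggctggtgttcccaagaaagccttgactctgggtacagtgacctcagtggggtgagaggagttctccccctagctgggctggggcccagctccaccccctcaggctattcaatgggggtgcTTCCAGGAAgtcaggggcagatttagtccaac
S100b: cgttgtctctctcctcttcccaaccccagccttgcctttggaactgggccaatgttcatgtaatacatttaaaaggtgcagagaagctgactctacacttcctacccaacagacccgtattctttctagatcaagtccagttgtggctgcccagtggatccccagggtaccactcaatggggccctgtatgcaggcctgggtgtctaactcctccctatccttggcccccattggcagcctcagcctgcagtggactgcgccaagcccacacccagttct
Slc4a4 first start: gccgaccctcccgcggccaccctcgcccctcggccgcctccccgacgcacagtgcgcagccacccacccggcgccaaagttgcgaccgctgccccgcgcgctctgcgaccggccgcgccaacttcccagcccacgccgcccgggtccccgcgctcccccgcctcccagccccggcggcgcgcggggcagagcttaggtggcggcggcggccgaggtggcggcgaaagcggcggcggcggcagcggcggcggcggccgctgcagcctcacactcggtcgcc
Slc4a4 second start: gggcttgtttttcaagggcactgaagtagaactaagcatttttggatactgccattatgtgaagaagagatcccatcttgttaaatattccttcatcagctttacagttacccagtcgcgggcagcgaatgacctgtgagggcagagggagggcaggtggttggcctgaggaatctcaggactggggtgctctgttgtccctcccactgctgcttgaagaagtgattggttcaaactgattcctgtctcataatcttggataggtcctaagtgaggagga
The motif lay across the Gfap start, its first base 2 bases upstream, and was not in the printed windows of S100b or Slc4a4. Windows of 300 bases could be matched for 27 of the 31 genes, and 7 of the 27 genes held the motif in a window, beside 9.55% of 27025 mouse genes. By window it was 8 of 35, beside 8.3% of 32851, where a pair of overlapping Sphk1 windows holds the same site. The genes with a match were Acsbg1, Emp1, Gfap, Ntsr2, Slc1a3, Sphk1 and Steap4, and in edgeR none of the 6 of these that were tested passed. A match is a description of letters and not of binding.

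Glutamate handling was carried by 3 genes, and these had the 3 positive fold changes among the identity genes. Slc1a2 encodes the main glutamate transporter GLT-1, which takes up most synaptic glutamate in the forebrain. It stood at 2711, 2264, 2732, 1965 and 2167 CPM after AC-T, against 1896, 1707, 2408, 2172, 2355 and 2409.6 CPM after saline (log2 0.13 ± 0.11 SE; edgeR adjusted p = 0.518). The AC-T libraries 501 and 503 were above every saline library, and the other 3 lay within the saline range. Slc1a3 encodes the second astrocyte glutamate transporter, GLAST, and was at 769, 627, 766, 534 and 559 CPM after AC-T, against 495, 576, 637, 641, 663 and 699 CPM after saline. Again 501 and 503 stood above the saline range and the other 3 within it (log2 0.07 ± 0.12 SE; edgeR adjusted p = 0.756). Glul, glutamine synthetase, converts the glutamate into glutamine and was at 1658 ± 212 CPM after AC-T and 1633 ± 145 CPM after saline (log2 0.02 ± 0.09 SE; edgeR adjusted p = 0.916). The sign of the Glul value changed with upper-quartile factors (−0.0027).

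**Figure D2:**
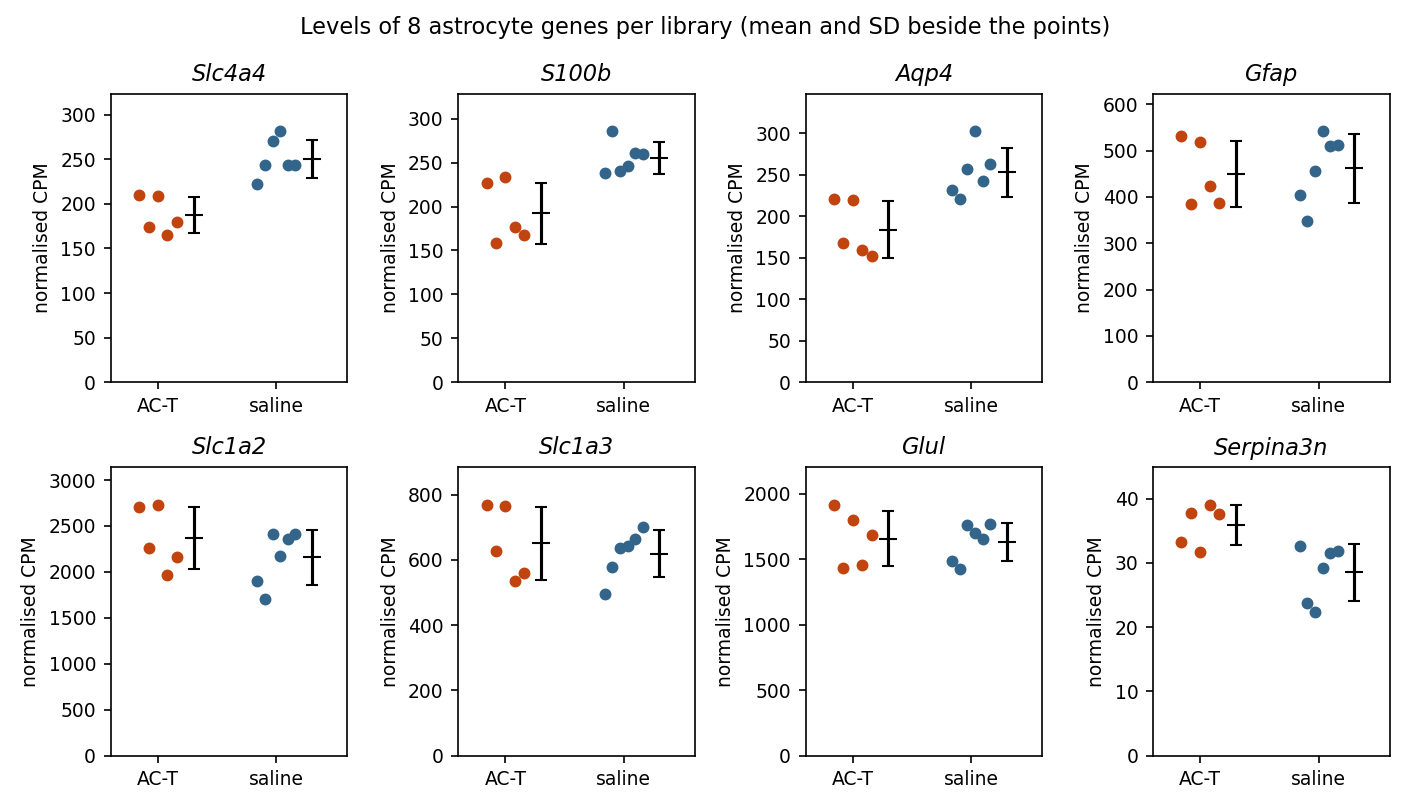
Normalised CPM (y axis, from 0) of 8 astrocyte genes in each AC-T library (left) and each saline library (right), with the group mean and SD beside the points. For Slc4a4 and S100b the groups do not overlap, while for Gfap, Slc1a2, Slc1a3 and Glul the AC-T and saline points overlap.

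The enzyme, receptor and transcription factor genes did not pass in edgeR, and in DESeq2 Acsbg1 (adjusted p = 0.0318), Ntsr2 (0.0182) and Aldh1l1 (0.0468) passed as lower. In edgeR, Ntsr2 passed without AC-T 501 (adjusted p = 0.0324), and Acsbg1 (0.0296) and Ntsr2 (0.0308) without the AC-T mice of series 5. Acsbg1, an acyl-CoA synthetase, was listed at 198, 137, 196, 139.6 and 151 CPM after AC-T, against 178, 197, 212, 209, 208 and 197 CPM after saline (log2 −0.29 ± 0.10 SE; edgeR adjusted p = 0.110). Ntsr2, a neurotensin receptor, was listed at 112, 76.1, 105, 87.2 and 86.1 CPM after AC-T, against 103, 119.8, 116, 109, 112 and 114 CPM after saline (log2 −0.27 ± 0.09 SE; edgeR adjusted p = 0.0861). In both genes 501 and 503 lay within the saline range and the other 3 AC-T libraries below it. Aldh1l1, a folate enzyme that marks astrocytes across the brain, stood at 0.853 of saline, and Fgfr3, a fibroblast growth factor receptor, at 0.858 (edgeR adjusted p = 0.136 and 0.163). Sox9, a transcription factor of glial fate, stood at 25.3 ± 2.38 CPM after AC-T and 28.1 ± 4.49 CPM after saline (edgeR adjusted p = 0.415). Id3, an inhibitor of helix-loop-helix transcription factors that vascular cells also express, stood at 37.0 ± 3.59 and 44.3 ± 8.26 CPM in the same order (log2 −0.26 ± 0.12 SE; edgeR adjusted p = 0.189). Id3 was 59.7 CPM in saline 300 and 37.9 to 45.9 CPM in the other saline libraries.

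The reactivity genes that many forms of injury raise did not pass. Serpina3n, a secreted protease inhibitor, was at 33.3, 37.7, 31.8, 39.1 and 37.5 CPM after AC-T, against 32.6, 23.8, 22.3, 29.1, 31.5 and 31.9 CPM after saline. Of the AC-T libraries 4 lay above every saline library, and AC-T 503 lay within the saline range. Its level was 1.26-fold that of saline (log2 0.33 ± 0.10 SE; edgeR adjusted p = 0.0736; DESeq2 adjusted p = 0.0151). With the thalamus score as covariate the log2 fold change of Serpina3n was 0.076 (edgeR adjusted p = 0.953). Osmr, the oncostatin M receptor, was at 7.74, 6.85, 7.62, 4.68 and 6.10 CPM after AC-T, against 5.54, 5.67, 5.74, 5.36, 5.63 and 6.05 CPM after saline. The 3 AC-T mice of series 5 and mouse 602 were above the saline range and mouse 600 was below it (log2 0.22 ± 0.12 SE; edgeR adjusted p = 0.273). Without AC-T 600 the adjusted p was 0.0428 (log2 0.32), and with the AC-T mice of series 5 alone it was 0.0317 (log2 0.39), whereas with the AC-T mice of series 6 alone the sign turned (log2 −0.078, adjusted p = 0.772). Vim, the intermediate filament protein vimentin, was at 47.7 ± 1.43 CPM after AC-T and 50.5 ± 6.84 CPM after saline (edgeR adjusted p = 0.579). Cp, the copper-carrying ferroxidase ceruloplasmin, stood at 0.944 of saline (edgeR adjusted p = 0.701), and S1pr3, a sphingosine-1-phosphate receptor, at 1.04-fold (edgeR adjusted p = 0.682).

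Of the genes that ischaemic injury raises in mouse astrocytes, Emp1, a membrane protein, stood at 1.17-fold the saline level and S100a10, an annexin partner, at 1.05-fold (edgeR adjusted p = 0.378 and 0.784). Tm4sf1, a tetraspanin-like protein that endothelial cells also make, stood at 0.912 of saline (edgeR adjusted p = 0.600), with 28.0 CPM in saline 300 and 14.9 to 21.1 CPM in the other saline libraries. Across the 8 reactivity genes above 0 in all libraries the median log2 fold change was 0.07, with 5 positive and 3 negative.

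The other 5 reactivity genes in the table were listed at 0 in some libraries, where a 0 can stand for a value under a reporting limit. The lowest listed value above 0 was 130 counts for Cd109 and 99 for Cd44, 73 for Steap4, 31 for Sphk1 and 15 for Lcn2. No fold change is given for these genes. Lcn2, the secreted lipocalin that rises most in acute neuroinflammation, was listed at 15 and 37 counts in AC-T 501 and 602, and at 0 in the other 3 AC-T libraries and in all 6 saline libraries. Steap4, a metalloreductase, was listed at 73 counts in AC-T 600 and 75 in saline 300, and at 0 elsewhere. The adhesion receptor gene Cd44 was above 0 in 2 of 5 AC-T and 4 of 6 saline libraries. Cd109, which encodes a membrane-anchored protein, was above 0 in 4 of 5 and 4 of 6 libraries. Sphk1, a sphingosine kinase, was above 0 in 3 of 5 and 4 of 6.

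**Figure D3:**
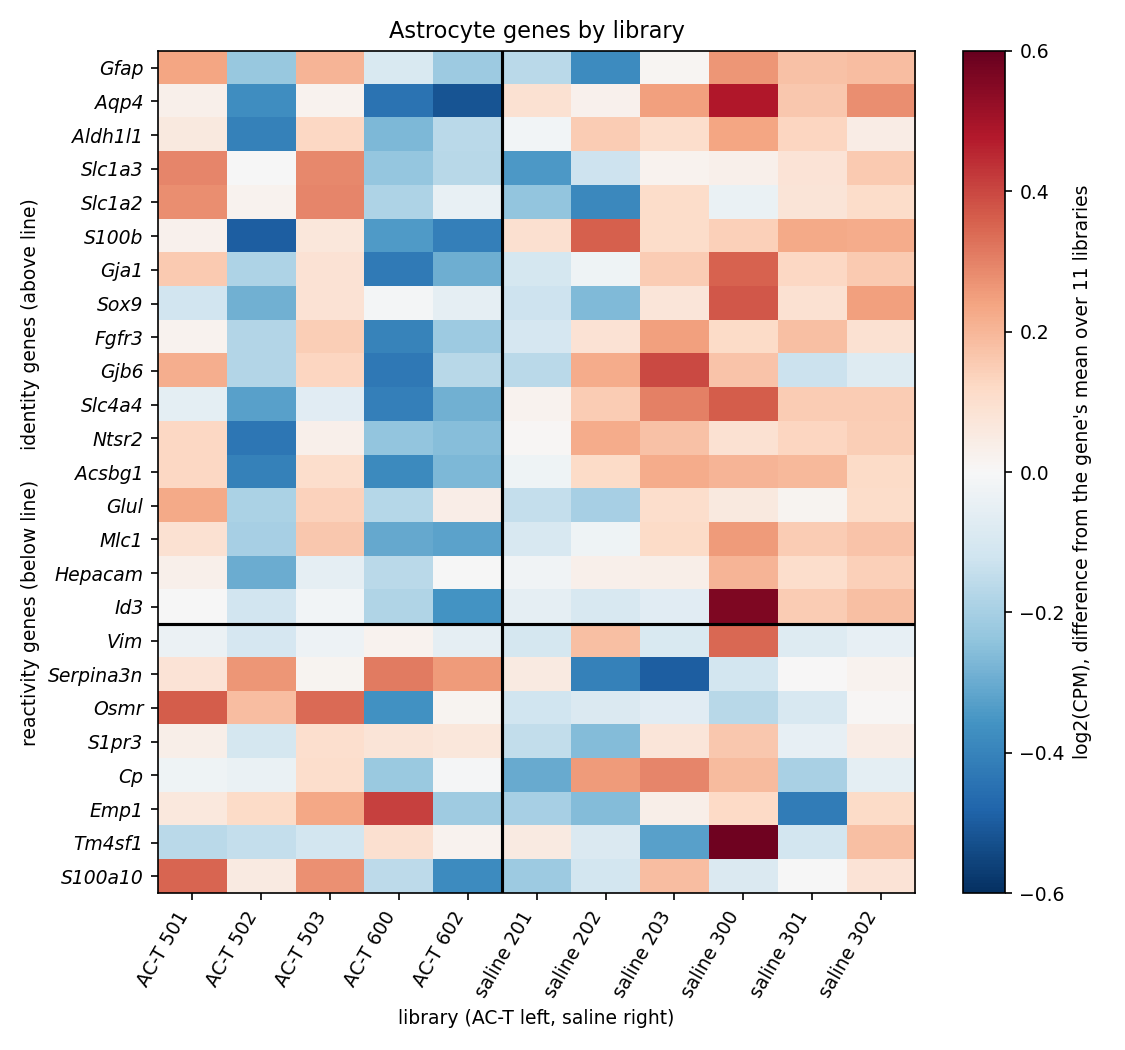
Log2 CPM minus the gene's mean over 11 libraries (colour, red above and blue below the mean) for 17 identity genes (above the line) and 8 reactivity genes (below it), AC-T libraries left and saline libraries right. AC-T 502, 600 and 602 are blue through most identity genes, while AC-T 501 and 503 look like the saline libraries, and the reactivity rows share no such pattern.

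The identity genes moved together within the AC-T group. In AC-T 501 and 503, 14 of the 17 were above the gene's mean over all libraries, against 1 in 502, 0 in 600 and 1 in 602. In 15 of the 17 genes, 501 and 503 were the highest 2 of the AC-T libraries. Among saline libraries 4 of 17 were above the mean in 201 and 9 in 202, and 16 in each of the other 4. The same AC-T libraries stood apart in a list of 40 further astrocyte genes, with 29 above their mean in 501 and 32 in 503, against 6 in 502, 7 in 600 and 7 in 602. The division crosses the series of mouse numbers, since 502 belongs to series 5 with 501 and 503. It was not limited to astrocyte genes. Scores of other cell types were formed like the thalamus score. The microglial score was 5.34 in 501 and 5.29 in 503, against 4.99 in 502, 5.09 in 600 and 4.95 in 602. The endothelial score was 4.83 in 501 and 4.96 in 503, against 4.64 in 502, 4.67 in 600 and 4.73 in 602. Neuron and oligodendrocyte scores did not divide the AC-T libraries in this way. Within treatment, 0 of the 17 identity genes and 0 of the 11 tested reactivity genes passed between AC-T series 6 and series 5 in edgeR, where 0.117% of all genes passed. Between saline series 3 and series 2 the numbers were also 0 and 0, where 1.03% of all genes passed. The median of the identity genes was −0.26 for AC-T series 6 minus series 5 and 0.14 for saline series 3 minus series 2.

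Mitochondrially encoded genes moved with the identity genes across libraries. They took 11.4% and 12.2% of the counts in AC-T 501 and 503, and 9.59%, 8.81% and 8.69% in 502, 600 and 602. In saline libraries their share was 10.3% in 201, 10.6% in 202 and 11.04% to 12.5% in the other 4. The group means were 10.1 ± 1.57% after AC-T and 11.5 ± 0.926% after saline (SD, n = 5 and 6; exact permutation p = 0.115). With this share as covariate, an alternative chosen after seeing the data, Slc4a4 kept its call (log2 −0.32; edgeR adjusted p = 0.0314). Aqp4 (−0.28, 0.0601) and S100b (−0.28, 0.0923) did not, while Slc1a3 passed as higher (0.27, 0.0242). The neuron score, the mean log2(CPM + 0.5) of 8 neuronal genes, was 9.15 to 9.37 after AC-T and 8.86 to 9.23 in saline libraries (exact permutation p = 0.0411; 0.107 when adjusted for 13 list scores). The part of these measures in the identity result was not tested beyond these fits.

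**Figure D4:**
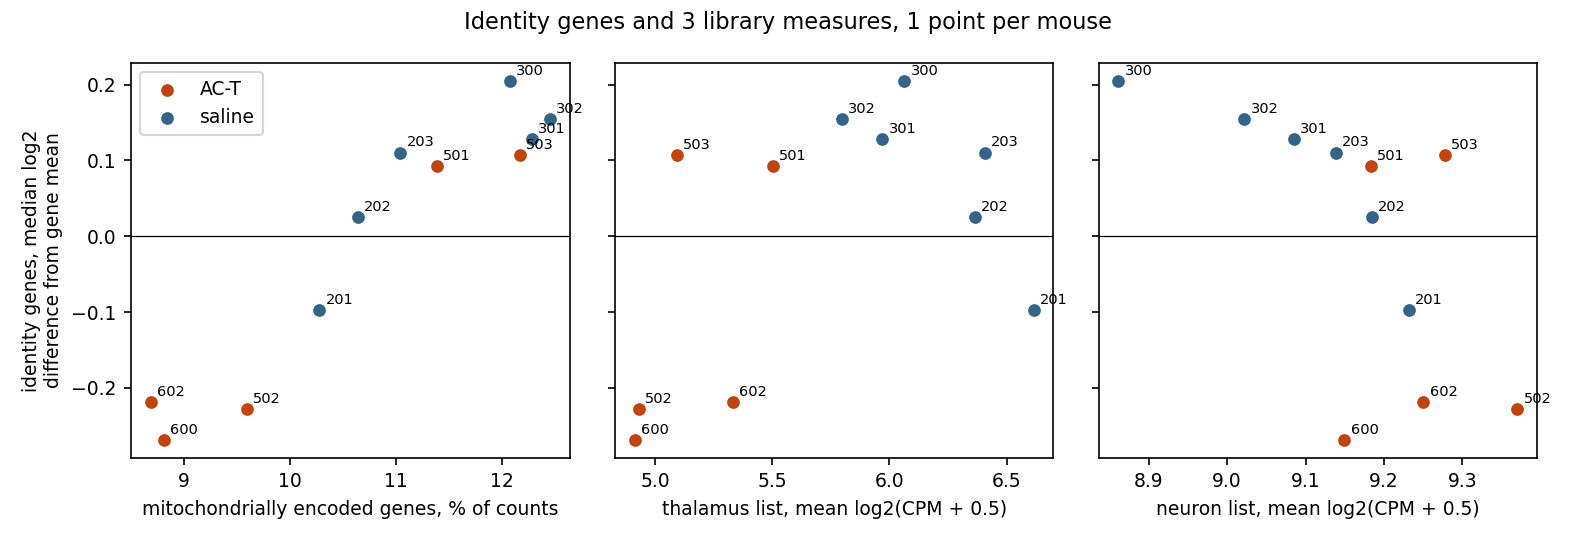
Median of the 17 identity genes in each library (y axis, log2 difference from the gene's mean) against the mitochondrial share of counts, the thalamus score and the neuron score (x axes), 1 point per mouse, AC-T and saline in different colours. AC-T 502, 600 and 602 have the 3 lowest medians and the 3 lowest mitochondrial shares, while thalamus scores separate AC-T from saline whatever the median.

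Among the 40 further astrocyte genes 5 fell and 0 rose, 12.5% of the list beside 3.58% of all genes, with 34 negative fold changes and a median of −0.14. Kcnj10, the potassium channel Kir4.1 that clears extracellular potassium, was listed at 321, 229.6, 297, 251 and 273 CPM after AC-T, against 364, 395, 399, 467, 387 and 412 CPM after saline. These groups did not overlap, and Kcnj10 fell to 0.679 of saline (log2 −0.56 ± 0.09 SE; edgeR adjusted p = 0.00550). Atp1b2, the glial beta subunit of the sodium pump, fell to 0.776 (517 ± 42.6 against 666 ± 47.2 CPM; edgeR adjusted p = 0.0105). Tril, an accessory protein of Toll-like receptors, fell to 0.757 (52.2 ± 6.78 against 69.0 ± 2.25 CPM; edgeR adjusted p = 0.0105). The Atp1b2 call ended without the saline mice of series 2 (edgeR adjusted p = 0.0637) and without the AC-T mice of series 5 (0.0641) or 6 (0.0550). The Tril call ended without the saline mice of series 2 (0.0661). Ednrb, the endothelin B receptor, fell to 0.732 (edgeR adjusted p = 0.0421), a call that ended on removing any 1 of 8 libraries (highest adjusted p = 0.0930, with AC-T 602 removed). Without AC-T 502, 602 or any 1 of saline 202, 203, 300, 301 and 302, 3 of the 40 genes were lower, and without AC-T 501 8 were. With the thalamus score as covariate 0 of the 40 passed as lower in edgeR. In that fit 0 of all 15353 genes tested were lower and 1 was higher. The score did not overlap between the groups, so this count cannot bear on the 40 genes in particular.

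Genes that distinguish astrocytes by region were examined next. All 4 listed genes of astrocytes outside the telencephalon fell, beside 3.58% of all genes tested, with a median log2 fold change of −0.84. Groups did not overlap in any of the 4, beside 7.54% of all genes tested when either direction is counted. This list was also chosen with earlier results of these data known. Slc6a11, the GABA transporter GAT-3, was at 272, 197, 259, 206 and 230.0 CPM after AC-T, against 413, 492, 508, 500.3, 431 and 394 CPM after saline. It fell to 0.510 of saline (log2 −0.97 ± 0.10 SE; edgeR adjusted p = 0.000665). Agt, angiotensinogen, was at 46.1, 33.2, 49.5, 35.5 and 42.1 CPM after AC-T, against 76.2, 86.8, 96.4, 90.4, 67.8 and 60.9 CPM after saline (0.518 of saline; edgeR adjusted p = 0.00361). Itih3, a hyaluronan-binding protein, fell to 0.606 and Slc6a9, the glycine transporter GlyT1, to 0.729 (edgeR adjusted p = 0.00638 and 0.0168). The Slc6a9 call ended with series as a random effect (limma-voom adjusted p = 0.0585), without the saline mice of series 2 (edgeR adjusted p = 0.116) and without the AC-T mice of series 5 (0.143), where the Itih3 call also ended (0.0861). In these 4 genes AC-T 501 and 503 were below every saline library, as were 502, 600 and 602. These differences stood beside the thalamus scores of 4.91 to 5.50 after AC-T and 5.80 to 6.62 after saline. With that score as covariate 0 of the 4 genes passed in edgeR, where 1 of all 15353 genes tested did. The log2 fold change in that fit was −0.63 for Slc6a11, −0.38 for Agt, −0.19 for Itih3 and −0.079 for Slc6a9. Treatment and the thalamus score did not overlap between groups, so within these libraries their effects on astrocyte genes cannot be told apart.

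**Figure D5:**
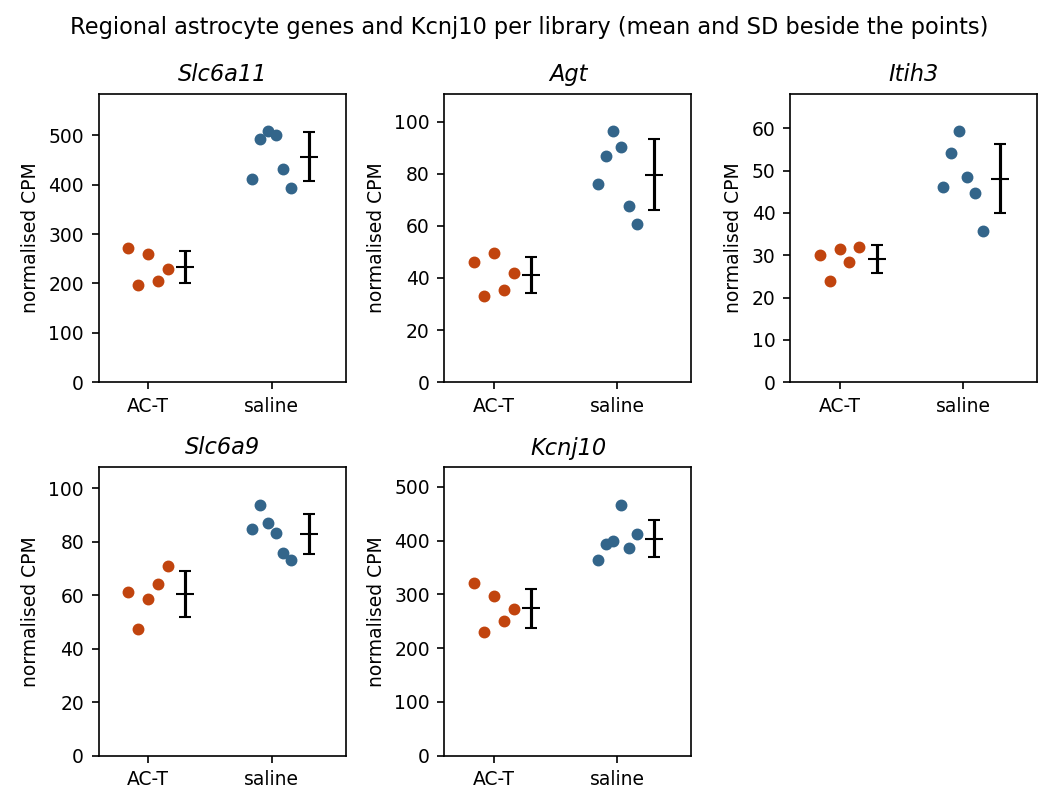
Normalised CPM (y axis, from 0) of 4 astrocyte genes of regions outside the telencephalon (Slc6a11, Agt, Itih3, Slc6a9) and Kcnj10 in each AC-T library (left) and saline library (right), with mean and SD. In all 5 genes every AC-T library lies below every saline library.

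Signalling upstream of astrocyte reactivity was examined in 14 genes of the gp130 and STAT3 pathway, of which 11 were tested. Of these 1 rose (9.09%, beside 4.89% of all genes tested) and 1 fell (9.09%, beside 3.58%). Their median log2 fold change was 0.0024. Jak1, the kinase bound to gp130-family receptors, was at 158, 179, 155, 149.9 and 165 CPM after AC-T, against 140.1, 128, 138, 122, 136 and 141 CPM after saline, with no overlap. It rose 1.20-fold (log2 0.27 ± 0.05 SE; edgeR adjusted p = 0.0154). Cntfr, the receptor subunit for ciliary neurotrophic factor, fell to 0.809 of saline (66.0 ± 8.17 against 81.7 ± 5.19 CPM; edgeR adjusted p = 0.0363). The Cntfr call ended on removing any 1 of 7 libraries (highest adjusted p = 0.0764, with AC-T 600 removed), without either series of either treatment, with series as a random effect (limma-voom adjusted p = 0.134), with the mitochondrial share (0.111) and with the thalamus score (0.988, log2 −0.013). The Jak1 call held on removing any 1 library and ended with series as a random effect (limma-voom adjusted p = 0.0811), without the AC-T mice of series 5 (0.122), without the saline mice of series 2 (0.0685) or 3 (0.0542), with the thalamus score (0.750) and with the mitochondrial share (0.0536). Jak1 and Cntfr are also expressed by neurons, whose score is given above. Of the 16 further pan-reactive and neurotoxic-type (A1) genes, 13 were tested and 0 passed in edgeR, with a median of −0.14, and 1 had an unadjusted p under 0.05. This was Fkbp5, a chaperone that glucocorticoids induce, at 50.2 ± 7.27 CPM after AC-T and 39.5 ± 4.76 CPM after saline (log2 0.35 ± 0.10 SE; edgeR adjusted p = 0.0608). Fkbp5 passed in DESeq2 (adjusted p = 0.00919) and when edgeR was fitted only on genes above 0 in all libraries (0.0423), and its adjusted p was 0.851 with the thalamus score. Of the 7 further genes of the ischaemic type (A2), 2 were tested and 0 passed in edgeR. The smaller p was that of Ptgs2, cyclooxygenase 2, which neurons also express (log2 0.38 ± 0.16 SE; edgeR adjusted p = 0.151).

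Several astrocyte and reactivity genes are also made by other cells of the tissue, whose markers were counted in the same analysis. Of 8 microglial markers 0 passed in edgeR (median 0.08, and 0 at an unadjusted p under 0.05), and their summed level was 348 to 444 CPM after AC-T and 327 to 412 CPM after saline. Of 8 endothelial markers 1 fell and 0 rose in edgeR, 3 had an unadjusted p under 0.05 and all 8 fold changes were negative (median −0.18; exact permutation p of the score 0.0303, and 0.0985 for 13 scores), with a summed level of 228 to 288 CPM after AC-T and 257 to 303 CPM after saline. Of 6 meningeal markers 0 passed in edgeR (median −0.16, and 0 at an unadjusted p under 0.05), with a summed level of 164 to 306 CPM after AC-T and 139.7 to 382 CPM after saline. Of 6 mural markers 1 fell, and 0 of 5 ependymal, 0 of 5 choroid plexus and 0 of 4 blood markers passed in edgeR, with 0, 0 and 2 at an unadjusted p under 0.05. Over all genes tested 3.58% fell and 4.89% rose in edgeR. The choroid plexus markers summed to between 81.7 and 5429 CPM after AC-T and between 21.7 and 5546 CPM after saline. Of the neutrophil markers, Ngp and Camp were not analysed here, and S100a8 and S100a9 summed to at most 0.470 CPM after AC-T and 0.584 CPM after saline. The part of these cells in the levels of Vim, Id3, Tm4sf1 and Lcn2 was not tested.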

How the data were processed

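Poly-A, stranded RNA libraries of hippocampal punches were sequenced, per the labels' protocols. The authors deposited 1 table of expected counts per gene, and the submitters' processing notes name Dragen 4.3.6, FastQC 0.11.9, Salmon 1.9.0 and GRCm39. Salmon-type estimates share reads among similar genes, and listed 0s can be values under a limit. Expected counts were rounded and tested in edgeR 4.0.16 (quasi-likelihood, TMM factors, Benjamini-Hochberg adjustment, filterByExpr at 10 counts), with DESeq2 1.42.0 and limma 3.58.1 (voom) as alternatives. List scores are mean log2(CPM + 0.5), compared by exact permutation, 2-sided. The main edgeR p-values set the group difference against the spread between mice within groups, taken as independent. Series were not modelled in them. On simulated counts of 15353 genes with the design of 5 against 6 libraries, 76% of 1.5-fold and 92% of 2-fold changes were recovered, with 5.08% false calls. The simulated mice were independent, with no correlation within series, and changes were placed only in genes above a limit of average level. All member genes are reported; of other lists, passing genes with the smallest p, up to 4 a list, are named, otherwise the gene with the smallest p, and some results are not reported here. Members and lists were chosen with earlier results of these data known. The series design states 6 mice a group, and 5 AC-T mice were analysed here.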

Additional observations from a re-analysis of the deposited data

Results flagged for a closer look

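Id3 was 59.7 CPM in saline 300, and the nearest other saline library was at 45.9 CPM. The gap is 0.632 of the range of the 6 saline libraries, above the limit of Dixon's test for a sample apart from its group. Of 50 groups of values examined this was the 1 so marked, where chance marks about 5% of groups.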

How the results depend on the processing

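Over 26 other fits, Slc4a4 lost its call in 3, Aqp4 in 13 and S100b in 14, and all 3 stayed lower in each. The number of all genes passing (1301) was 2559 with DESeq2, 293 with mouse-number series as a random effect, 1 with the thalamus score as covariate, 719 with the mitochondrial share as covariate (chosen after seeing the data), 2295 at an adjusted p of 0.10, and 625 to 1229 with 1 library left out. It was 549 without saline series 2, 317 without AC-T series 5 and 409 without AC-T series 6. Identity genes lower (3) were 7 with DESeq2, 1 with the random effect, 0 with the thalamus score and 1 with the mitochondrial share, where 1 was higher. They were 1 without saline series 2, 0 without saline series 3, 5 without AC-T series 5, 0 without AC-T series 6, and 1 to 4 with 1 library left out. Reactivity genes higher (0) were 1 with DESeq2, 1 at 0.10, 1 without AC-T series 6 and 0 to 1 with 1 library left out. Of the 40 further astrocyte genes, those lower (5) were 12 with DESeq2, 3 with the random effect, 0 with the thalamus score, 3 with the mitochondrial share, 8 at 0.10 and 3 to 8 with 1 library left out. They were 1 without saline series 2, 3 without saline series 3, 8 without AC-T series 5 and 2 without AC-T series 6. Non-telencephalic genes lower (4) were 0 with the thalamus score and 2 without AC-T series 5. The identity median (−0.22) was −0.38 without AC-T series 5, −0.090 with the mitochondrial share, −0.13 without saline series 3 and −0.29 to −0.16 with 1 library left out. The reactivity median was 0.06 over the 11 genes tested in the main fit, which include Cd44, Cd109 and Sphk1. It was −0.066 with the thalamus score and −0.012 to 0.074 with 1 library left out. Without AC-T series 5 it was −0.045, and without AC-T series 6 it was −0.034.

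Signs turned for genes that had not passed. With the thalamus score, log2 fold changes were −0.091 for Slc1a3, 0.26 for Gjb6, −0.066 for S1pr3, 0.039 for Cp and −0.13 for Emp1. With the mitochondrial share Gfap was 0.17, and with upper-quartile factors Glul was −0.0027. Without saline series 2, values were −0.037 for Slc1a3, −0.044 for Glul and −0.015 for S1pr3. Without saline series 3 they were 0.15 for Gfap, 0.017 for Sox9 and 0.052 for Tm4sf1. Without AC-T series 5 they were −0.19 for Slc1a3, −0.069 for Slc1a2, −0.064 for Glul, −0.078 for Osmr and −0.25 for S100a10, and without AC-T series 6 Gfap was 0.052. With 1 library left out, Gfap ranged from −0.11 to 0.012, Glul from −0.035 to 0.070 and S100a10 from −0.012 to 0.16. The cause was not tested.

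No paired analysis was possible because AC-T and saline mice share no replicate number. In simulation without correlation within series, 76% of 1.5-fold changes were recovered. Smaller changes, such as those of most identity genes, can therefore be missed at this number of mice.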
